A study of Mus musculus with 2 samples.

Results

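The collagen-producing fibroblasts of the kidney cortex are barcodes selected on the messenger RNAs of 3 fibrillar collagen chains and decorin. A barcode of a droplet library was a member if it held 10 or more unique molecular identifiers (UMIs, each counting 1 captured RNA molecule) summed over Col1a1, Col1a2, Col3a1 and Dcn, with 3 or all 4 of these genes present. Only barcodes with 200 or more genes and no more than 50% mitochondrially encoded UMIs were kept. A member also held no UMI of Ptprc, the pan-leukocyte gene, and none of the endothelial genes Pecam1 and Cdh5. The rule found 277 members among 7308 kept barcodes. The I-PpoI library gave 256 members from 4091 barcodes and the wild-type library 21 from 3217.

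The series compared the kidney cortex of 12-week-old mice that express I-PpoI in podocytes with that of wild-type mice of the same age. I-PpoI is a homing endonuclease that cuts both strands of DNA at a fixed recognition site, and podocytes are the epithelial cells that cover the glomerular capillaries, so by the labels the expressing cells are not the fibroblasts described here. Each group was 1 library of a dissociated cell suspension, captured with a 3' droplet kit. The labels used here do not name the promoter, the allele or the number of mice behind a library. With 1 library per group no p-value can be given. All intervals below are exact 95% intervals that cover counting error only, and a difference between genotypes cannot be told apart from one between 2 libraries.

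Fibroblasts fill the space between tubules and around vessels and secrete the interstitial matrix. Col1a1 and Col1a2 encode the chains of type I collagen and Col3a1 that of type III, which assemble into fibrils, and decorin (Dcn) is a small proteoglycan that coats those fibrils. In the injured kidney, fibroblasts and the related pericytes are known as the main source of scar matrix.

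Both libraries held few barcodes near the rule's limit. Members with a sum of 10 to 14 UMIs numbered 12 in the I-PpoI and 3 in the wild-type library, and 9 and 4 kept barcodes just outside had a sum of 5 to 9. The I-PpoI members were deeper, with a median of 12477 UMIs and 3500.5 genes against 6152 UMIs and 2406 genes in the wild-type members. Summed over members, the I-PpoI library held 3402848 UMIs and the wild-type library 149884, so the precision of every ratio was set by the 21 wild-type members. Mitochondrially encoded genes gave a median of 4.11% and 5.46% of member UMIs. In the other kept barcodes this median was 3.28% in the I-PpoI and 14.6% in the wild-type library. The 2 libraries shared 6 barcode sequences, none of them a member's.

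The members made up 6.26% of kept barcodes in the I-PpoI library (Clopper-Pearson interval 5.53 to 7.04) and 0.653% in the wild-type library (0.405 to 0.996). The share was 9.59-fold higher in the I-PpoI library (interval 6.14 to 15.8). Other classes of barcode also differed in number, so the share was set against other denominators. The I-PpoI library held 1654 barcodes with macrophage genes against 199, and 136 with proximal tubule genes against 1029. Without the macrophage class in the denominator the ratio was 15.1 (9.67 to 24.8), without the proximal tubule class 6.74 (4.32 to 11.1), and without both 10.5 (6.75 to 17.3). Per barcode of the mural, mesangial and renin class, of which the libraries held 82 and 78, it was 11.6 (7.43 to 19.1).

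**Figure D1:**
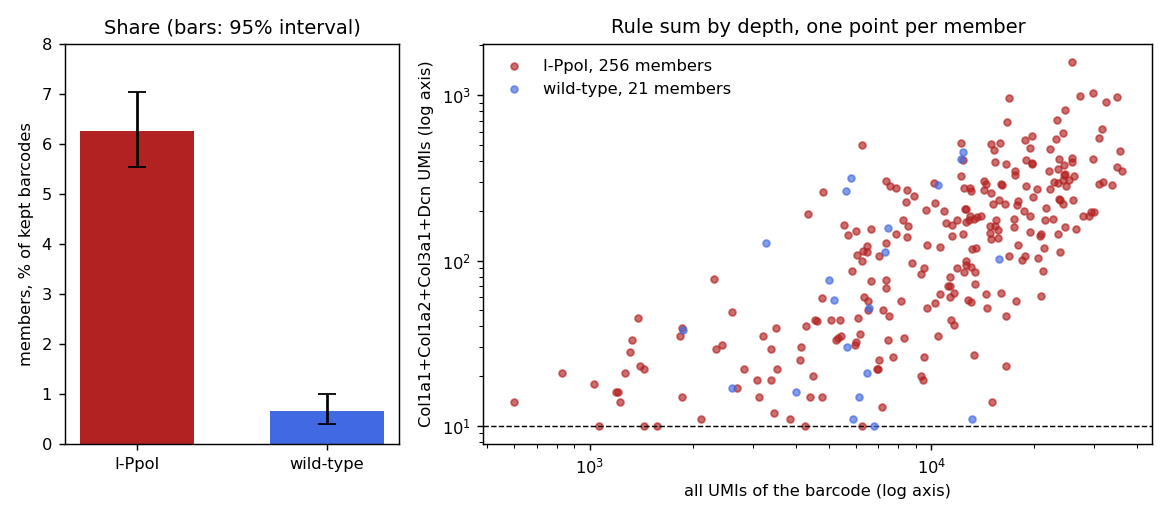
The left panel shows members as a percentage of kept barcodes in each library with 95% Clopper-Pearson intervals (6.26% and 0.653%). The right panel plots, for every member, the UMIs of the 4 genes of the rule against all UMIs of the barcode on log axes; the dashed line is the minimum of 10 UMIs, and the sum reaches 1583 UMIs in I-PpoI members and 453 in wild-type members, whose depths lie between 1872 and 15799 UMIs against 598 to 36194.

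Genes the rule did not use gave the members a fibroblast profile. Values in this paragraph are summed UMIs scaled to a total of 1000000 (CPM), and set the I-PpoI members against all other kept I-PpoI barcodes as a description, since the rule selected the members. Among the genes that led were Lum, the collagen-binding proteoglycan lumican, at 74.6 CPM against 0.0913 elsewhere, and Fbln1, fibulin 1, at 59.9 against 0.122. These 2 were confined to few members: Lum had a UMI in 20 of 256, with 25.2% of its UMIs in 1, and Fbln1 in 45. Pdgfra, the receptor that marks interstitial fibroblasts, stood at 311 CPM against 3.16 and had a UMI in 203 of 256 members. The mesenchymal transcription factor Prrx1 stood at 104 CPM against 1.16, Adamts2, which trims procollagen, at 292 against 3.50, and Col6a3, a chain of beaded type VI collagen, at 381 against 5.26. The other 14 of the 20 leading genes were Sfrp4, Mmp3, Rbp4, Art4, Dnm3os, Smoc2, Cck, Mfap5, Frzb, Col12a1, Npy, Tnfrsf11b, Srpx2 and Cpxm1. Of these, Rbp4 had a UMI in 9 members, Sfrp4 in 12, and Mmp3 and Npy in 26 each. All 20 genes of a fibroblast marker list outside the rule were detected in members of both libraries, and their summed level was 38953 CPM in the I-PpoI and 22050 CPM in the wild-type members, against 874 and 316 CPM in other kept barcodes. Mgp, matrix Gla protein, alone gave 32440 and 11462 CPM of the members' sums. Of 19 genes of the list compared between libraries, 4 were at least 2-fold higher and 11 lower in I-PpoI members. Their median log2 ratio was -1.10, against -0.16 over all 4438 genes compared, of which 8.16% were higher and 16.4% lower.

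Markers of other cell types were present at lower levels than the fibroblast list and differed between the libraries. The mesangial list, with 8 and 7 of its 8 genes detected, summed to 3180 CPM in I-PpoI and 1254 CPM in wild-type members, against 3038 and 2686 CPM in the mural, mesangial and renin class. Serpine2, described below among the higher genes, belongs to that list and gave 2214 and 200 CPM of it, while its integrin gene Itga8 stood at 51.4 and 147 CPM and its transcription factor Gata3 at 4.70 and 33.4 CPM. The mural and pericyte list, with 14 of 14 genes detected in both libraries, summed to 835 CPM in I-PpoI and 4337 CPM in wild-type members, and 7 of 21 wild-type members but 49 of 256 I-PpoI members held at least 5 UMIs of the mural class genes. The renin cell list summed to 892 and 1808 CPM, the erythroid list to 332 and 20.0 CPM and the parietal epithelial list to 228 and 347 CPM. The proximal tubule list summed to 104 and 560 CPM, with 10 and 9 of its 12 genes detected. The macrophage list, with 14 and 4 of 14 genes detected, summed to 215 and 33.4 CPM. The endothelial list, with 12 and 7 of 12 genes detected, summed to 673 and 407 CPM, and its sialomucin gene Emcn had a UMI in 154 of 256 and 3 of 21 members. At least 5 UMIs of the endothelial class genes were held by 85 of 256 I-PpoI and 1 of 21 wild-type members, all without Pecam1 and Cdh5 by the rule. In the podocyte list, Nphs1 (nephrin) was at 10 and 0 UMIs, and Nes gave 205 of its 446 CPM in I-PpoI members, against 147 CPM in wild-type members. The part of any of these markers in the results below was not tested, except where members that carry them were left out.

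The collagen genes of the rule were close to each other in level in both libraries. Col1a1 stood at 4540 CPM in I-PpoI and 3763 CPM in wild-type members, Col1a2 at 4487 and 3483, and Col3a1 at 4139 and 3222. Per member, Col1a1 had a lowest value of 1.07, a median of 32.3 and a highest of 243 UMIs per 10000 of the barcode in the I-PpoI library, and 0, 19.1 and 116 in the wild-type library, so that the 2 sets overlapped almost entirely. Col1a1 and Col1a2 UMIs stood in a ratio of 1.01 (0.989 to 1.03) in I-PpoI and 1.08 (0.957 to 1.22) in wild-type members. In these 3' counts each captured molecule gives 1 UMI whatever its length.

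Decorin went the other way. Dcn stood at 1156 CPM in I-PpoI and 6785 CPM in wild-type members, and the ratio of Dcn to Col1a1 UMIs was 0.254 (0.246 to 0.264) against 1.80 (1.63 to 2.0). Per member its median was 3.33 UMIs per 10000 in the I-PpoI library, with a highest value of 294, and 16.0 in the wild-type library, with a highest value of 510. No I-PpoI member exceeded the highest wild-type member, and a single wild-type member gave 29.2% of the wild-type Dcn UMIs. Dcn was part of the rule, and its level is given as a description.

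Across the 256 I-PpoI members, the genes most like Col1a1 were other collagen and matrix genes. Over 5060 genes detected in a 0.25 share of the members or more, the Pearson correlation with Col1a1 of the logged counts per 10000 was highest for Col3a1 (0.72) and Col1a2 (0.70). Both, like Col1a1, were genes of the rule that selected the members, so their values are a description. Col5a1 (0.52) and Col5a2 (0.41), chains of type V collagen that nucleates fibrils, Sparc (0.48), a collagen-binding glycoprotein, and Fbn1 (0.45), the microfibril protein fibrillin 1, came next. Serpinh1 (0.42), the collagen chaperone HSP47, Loxl2 (0.40), a cross-linking lysyl oxidase, Bgn (0.37), biglycan, and Fstl1 (0.34) completed the first 10. The points are cells of 1 library that share its free RNA, and Col1a1 itself had a correlation of -0.07 with the logged depth.

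Between the libraries, 4438 genes had enough UMIs to compare, meaning that their mean CPM would give at least 5 UMIs among the wild-type members. Of these, 362 (8.16%) were at least 2-fold higher in CPM in I-PpoI members and 729 (16.4%) at least 2-fold lower, and the median log2 ratio was -0.16. Scaled to that median instead of to the total count, 469 were higher and 550 lower. Leaving out members that carry mural or epithelial genes left 265 higher and 475 lower among 2757 genes compared. Of the higher genes, 163 had a UMI in 3 or fewer wild-type members, and of the lower genes, 216 had one in 10 or more.

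The widest differences between the libraries among higher genes are given first. Spp1, osteopontin, an acidic secreted phosphoprotein that binds integrins and CD44, stood at 24680 CPM in I-PpoI members (83982 UMIs) and 66.7 CPM in wild-type members (10 UMIs), a ratio of 370 (201 to 771). Spp1 spans chr5:104435118-104441050 on the plus strand of GRCm38 in the GENCODE annotation, which lists it, like the other genes placed here, as protein-coding. It had a UMI in 235 of 256 I-PpoI members, with a median of 41.7 and a highest value of 2093 per 10000. Of the 256, 171 lay above the highest wild-type member, at 12.0. Such counts were taken for chosen genes only, without a share over all genes. Of the 10 wild-type UMIs of Spp1, 7 came from 1 member. Thinned to 2000 UMIs each, 80.7% of 238 I-PpoI members and 10.0% of 20 wild-type members had a UMI of Spp1, against 91.8% and 19.0% unthinned.

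Spp1 was also high in other classes of the same library. It stood at 36113 CPM in I-PpoI proximal tubule barcodes and 32418 CPM in keratin-rich epithelial barcodes, against 399 and 1879 CPM in the wild-type library. In classes with less of it, the level was 1097 CPM in I-PpoI macrophage barcodes, 586 CPM in endothelial and 232 CPM in mural barcodes. The level in the members thus lay between those of the epithelial classes and those of the macrophage, endothelial and mural classes. The part of free Spp1 RNA in the member counts was not tested beyond these levels.

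Timp1 (chrX:20870166-20874735, plus strand), the secreted inhibitor of matrix metalloproteinases, stood at 3607 CPM in I-PpoI and 60.0 CPM in wild-type members (12273 and 9 UMIs), a ratio of 60.1 (31.6 to 131). Per member its median was 6.99 per 10000 and its highest value 401 in the I-PpoI library, while 16 of 21 wild-type members had none and the highest held 9.15. Timp1 was low in the other classes of the I-PpoI library, between 9.36 CPM in proximal tubule and 65.9 CPM in mural barcodes. After thinning to 2000 UMIs, 64.3% of I-PpoI members (57.8 to 70.4) and 10.0% of wild-type members (1.23 to 31.7) had a UMI of Timp1, against 1.75% of I-PpoI macrophage barcodes. Unthinned, the members' shares were 82.8% at a median depth of 12477 UMIs and 23.8% at 6152, and that of the macrophage class 6.95% at 7976.5.

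Of the 11 named higher genes reported here, 4 were without a UMI in the 21 wild-type members. That count does not exclude a share of 14.3% (3 members) with a UMI. The folds of these 4 genes set the wild-type sum to 3 UMIs as a floor. Ltbp2, an elastic fibre protein of the latent TGF-beta binding family, had 1992 UMIs in 172 of 256 I-PpoI members (585 CPM) and was at least 29.2-fold higher. In the 5 other classes of the I-PpoI library Ltbp2 reached at most 9.30 CPM, in keratin-rich barcodes. Piezo2, a mechanically gated cation channel, was at least 15.2-fold higher (1033 UMIs in 193 members), Pla1a, a phosphatidylserine phospholipase, at least 13.8-fold (939 UMIs in 176 members) and Nkd2, an inhibitor of Wnt signalling, at least 12.5-fold (854 UMIs in 162 members).

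The remaining named higher genes were detected in both libraries. Serpine2, a protease inhibitor also called protease nexin 1, stood at 2214 and 200 CPM, a ratio of 11.1 (7.74 to 16.4), and had a UMI in 235 of 256 and 12 of 21 members. Thbs1, thrombospondin 1, an activator of latent TGF-beta, stood at 1660 and 167 CPM, a ratio of 9.95 (6.74 to 15.4). Npr3, the clearance receptor for natriuretic peptides, stood at 269 and 6.67 CPM, a ratio of 40.3 (7.22 to 1594) that rests on 1 wild-type UMI. The ranges of Serpine2 and Thbs1 overlapped between libraries, with 163 of 256 I-PpoI members above the highest wild-type member for Serpine2.

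**Figure D2:**
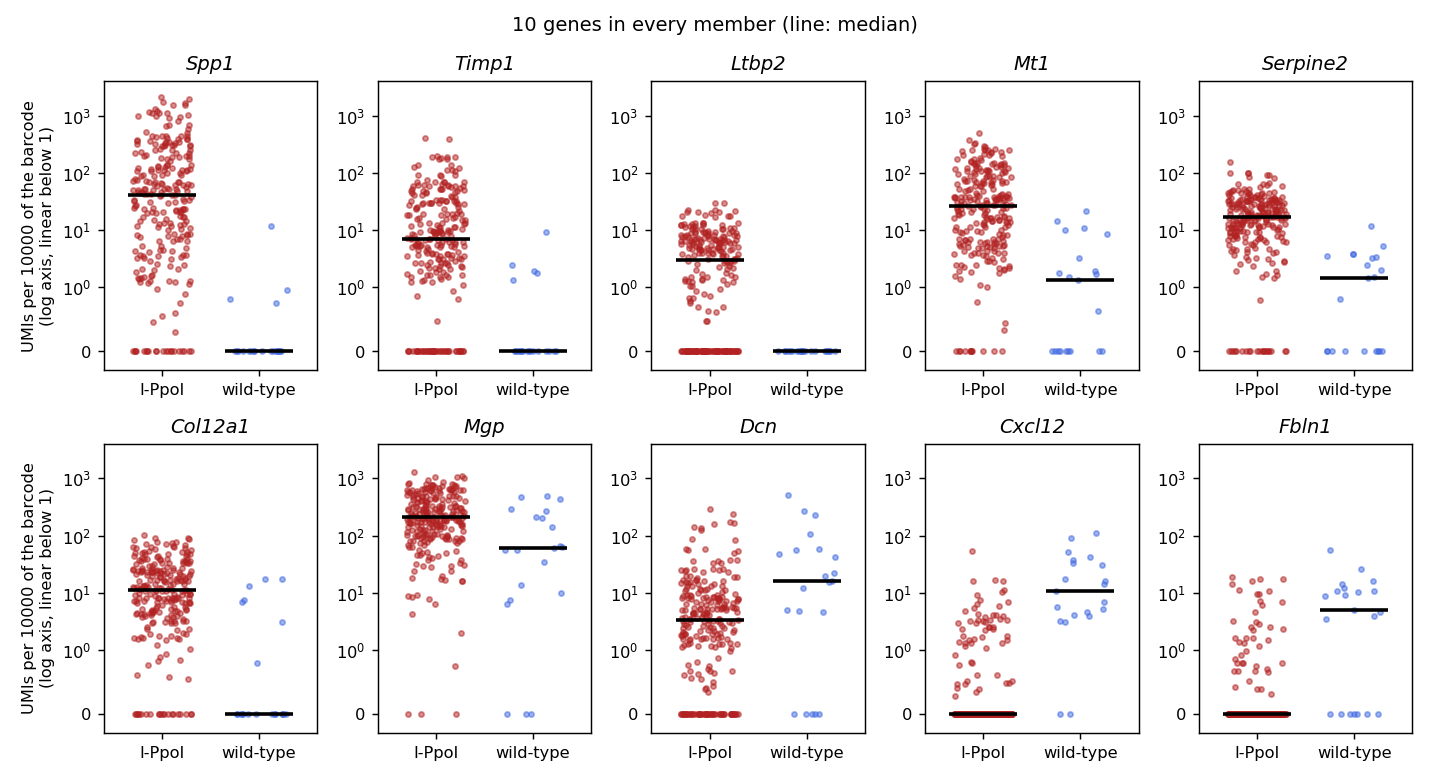
Each point is 1 member, placed by its UMIs per 10000 on a log axis that is linear below 1, and black lines are medians (256 I-PpoI and 21 wild-type members). For Spp1 171 I-PpoI members lie above the highest wild-type member, while for Dcn, Cxcl12 and Fbln1 none does. For Ltbp2 172 do, which is every I-PpoI member with a UMI, since no wild-type member had one. These counts were taken for chosen genes only, without a share over all genes, and the I-PpoI members were deeper.

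The metallothionein genes Mt1 and Mt2, whose cysteine-rich products bind zinc and copper, were higher together. Mt1 stood at 6214 CPM in I-PpoI and 294 CPM in wild-type members (21144 and 44 UMIs), a ratio of 21.2 (15.8 to 29.1). Mt2 stood at 3054 and 93.4 CPM (10393 and 14 UMIs), a ratio of 32.7 (19.5 to 59.8). Per member, Mt1 had a median of 26.6 and a highest value of 490 per 10000 in the I-PpoI library and 1.37 and 21.6 in the wild-type library, with 139 of 256 I-PpoI members above the highest wild-type member. Across I-PpoI members Mt1 and Mt2 had a correlation of 0.87 in logged counts per 10000. How the authors' counting divided reads that fit both related genes is not given in the sources used here. Other classes also had more Mt1 in the I-PpoI library, with 1452 against 310.5 CPM in macrophage and 2125 against 422 CPM in keratin-rich barcodes. In endothelial barcodes Mt1 was low in both, at 64.2 and 34.9 CPM.

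The sequences before the starts of both metallothionein genes are shown because the pair was higher together and lies within 1 short stretch of chromosome 8. In the GENCODE annotation of GRCm38, Mt2 spans chr8:94172664-94173568 and Mt1 chr8:94179082-94180327, both on the plus strand. The windows are the 250 bases before the RefSeq start on GRCm38.p6, chr8:94178839-94179088 for Mt1 and chr8:94172368-94172617 for Mt2, printed 5′ to 3′. Capitals mark matches to TGCACNC or TGCGCNC on either strand, the core of the metal response element bound by the zinc-sensing factor MTF-1.
Mt1: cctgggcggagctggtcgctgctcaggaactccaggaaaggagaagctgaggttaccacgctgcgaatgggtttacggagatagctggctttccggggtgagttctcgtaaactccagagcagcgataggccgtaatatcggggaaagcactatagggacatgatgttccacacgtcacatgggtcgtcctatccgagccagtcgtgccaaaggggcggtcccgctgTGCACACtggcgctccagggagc
Mt2: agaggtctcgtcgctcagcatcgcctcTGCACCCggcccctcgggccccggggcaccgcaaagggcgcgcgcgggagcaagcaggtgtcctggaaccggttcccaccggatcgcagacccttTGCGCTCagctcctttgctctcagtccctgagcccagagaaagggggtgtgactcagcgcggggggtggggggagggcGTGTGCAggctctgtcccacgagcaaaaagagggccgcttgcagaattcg
The window of Mt1 held 1 match, 23 to 17 bases before the start. That of Mt2 held 3, at 223 to 217, 128 to 122 and, on the minus strand, 50 to 44 bases before it. Of 32851 windows of this length in the table, 21.4% held at least 1 match and 1.26% at least 3. The counts hold for these windows only, and bases after the RefSeq starts were not searched. The Mt1 window ends past the GENCODE start of Mt1, while the Mt2 window ends before that of Mt2. Other starts were not examined, so the counts do not give the number of such elements near either gene and do not rank the pair. A match describes the letters only and shows no binding.

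The genes that stood out as lower rested on few wild-type members. The 11 reported here had a UMI in 1 to 5 of the 21 wild-type members and in 0 to 7 of the 256 I-PpoI members. Car3, a carbonic anhydrase, had 208 UMIs in 4 wild-type members and 1 UMI in the I-PpoI members, a level 4722-fold lower (838 to 187405). Apod, apolipoprotein D, had 238 UMIs in 2 wild-type members, 99.6% of them in 1, and 9 UMIs in 3 I-PpoI members. Myoc came from 1 wild-type member. Sfrp2, a secreted Wnt antagonist, had 29 UMIs in 3 wild-type members and Bmp5, a bone morphogenetic protein, 24 UMIs in 5, against 3 and 2 UMIs in the I-PpoI members. Moxd1, Hand2 and Ebf2 had no UMI in any I-PpoI member and 12, 11 and 11 UMIs in 2 or 3 wild-type members. Cav1, 3632451O06Rik and Entpd1 had 38, 33 and 23 UMIs in 4 or 5 wild-type members against 7 to 9. These differences describe a handful of wild-type cells and were not spread over them.

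A second group of lower genes had UMIs in more of the wild-type members. Cxcl12 (chr6:117168535-117181367, plus strand), a chemokine that retains leukocytes and progenitors, had 288 UMIs in 19 of 21 wild-type members (1921 CPM) and 218 UMIs in 61 of 256 I-PpoI members (64.1 CPM), a level 30.0-fold lower (25.1 to 35.9). Its median was 10.7 per 10000 in wild-type members and 0 in I-PpoI members, and no I-PpoI member reached the highest wild-type value of 111. After thinning to 2000 UMIs, 10.5% of I-PpoI members and 70.0% of wild-type members had a UMI of Cxcl12, against 23.8% and 90.5% unthinned and 0.259% and 0.581% of thinned macrophage barcodes. Fbln1 stood at 59.9 and 827 CPM, 13.8-fold lower (10.9 to 17.3), with a UMI in 45 of 256 and 14 of 21 members. Gpc3, a cell-surface heparan sulfate proteoglycan, was 17.5-fold lower (11.1 to 27.4) and C7, a terminal complement component, 9.37-fold lower (6.05 to 14.2), with a UMI in 8 and 10 wild-type members. Col6a1, a chain of type VI collagen, stood at 244 and 881 CPM with a UMI in 172 of 256 and 20 of 21 members, 3.61-fold lower (2.99 to 4.35).

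Collagen chains differed unequally. Of 3 fibrillar chains outside the rule that could be compared, Col5a2 was higher, at 842 and 193 CPM (ratio 4.35, 3.02 to 6.51), Col5a3 lower, at 42.0 and 120 CPM (0.35, 0.214 to 0.607), and Col5a1 stood at 310 and 234 CPM (1.33, 0.948 to 1.91). Col5a3 was higher, at a log2 ratio of 0.67, once members with mural or epithelial genes were left out. Of 13 network, beaded and fibril-associated chains, 3 were at least 2-fold higher and 6 lower, where 8.16% and 16.4% of all genes were. Col8a1, of the short-chain network type, stood at 811 and 73.4 CPM (11.1, 6.17 to 22.2), Col12a1, a fibril-associated chain, at 1838 and 374 CPM (4.92, 3.78 to 6.52), and Col15a1, at the basement membrane, at 1031 and 400 CPM (2.58, 2.0 to 3.38). The basement membrane chain Col4a1 stood at 1640 and 1715 CPM (0.956, 0.844 to 1.09). Of 26 genes that fold, trim and cross-link collagen, 4 were at least 2-fold higher and 5 lower, with a median log2 ratio of 0.01 against -0.16 over all genes. Bmp1, which cleaves the procollagen C-propeptide, stood at 207 and 26.7 CPM (7.75, 3.01 to 28.5) and the lysyl oxidase Lox at 398 and 147 CPM (2.71, 1.79 to 4.35). Serpinh1 stood at 800 and 1274 CPM (0.627, 0.542 to 0.731).

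Glycoprotein and elastic fibre genes had the highest summed level of the lists. Their 42 genes, which include Spp1, summed to 74574 CPM in I-PpoI and 26687 CPM in wild-type members, and of 38 compared 13 were at least 2-fold higher and 12 lower, with a median of -0.16. Mgp, matrix Gla protein, an inhibitor of calcification, gave 32440 and 11462 CPM (ratio 2.83, 2.70 to 2.97) and was the most abundant gene of the lists, with a UMI in 253 of 256 and 18 of 21 members. Fn1, fibronectin, stood at 1473 and 487 CPM (3.02, 2.40 to 3.86) and Fbln2, fibulin 2, at 291 and 46.7 CPM (6.23, 3.01 to 15.5), whereas Fbln1 was lower. Of 15 small proteoglycan and related core protein genes, 1 was higher and 9 were lower, with a median of -1.51. Over all genes, 8.16% were higher and 16.4% lower, with a median of -0.16. Gpc1, a glypican, had 259 UMIs and none in wild-type members, at least 3.80-fold higher, while Gpc3 was lower. Bgn stood at 3207 and 1841 CPM (1.74, 1.55 to 1.97).

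Of 23 matrix proteases and inhibitors, 7 were higher and 5 lower, where 8.16% and 16.4% of all genes were. Timp3, a tissue inhibitor bound to matrix, stood at 1778 and 2929 CPM (0.607, 0.551 to 0.67), in contrast to Timp1. Adamts5, an aggrecan-cleaving protease, stood at 82.6 and 234 CPM (0.354, 0.248 to 0.518). In the shared subgroups described below, Adamts5 had a log2 ratio of 0.07.

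**Figure D3:**
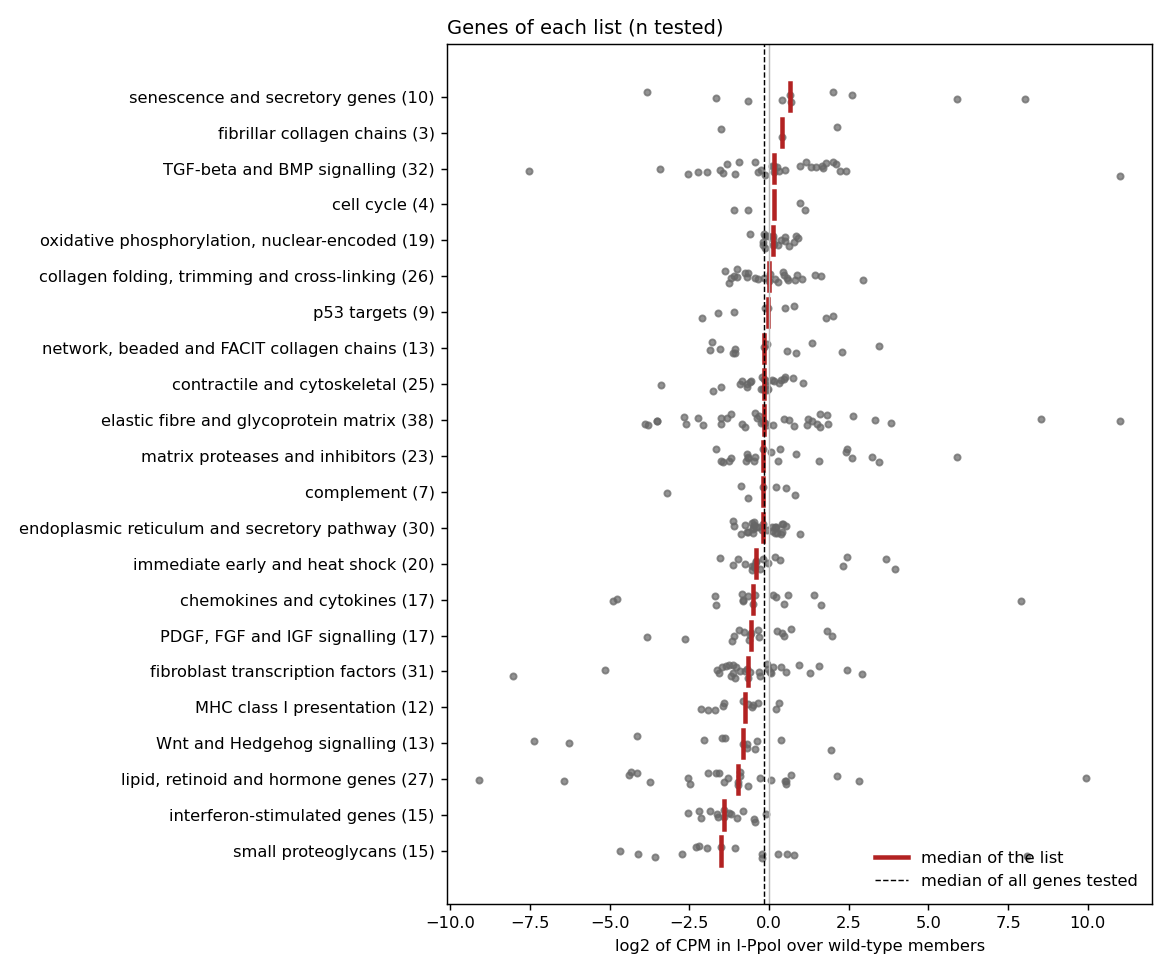
Each point is a gene with enough UMIs to compare, placed by the log2 ratio of its CPM in I-PpoI over wild-type members with a prior of 0.5 UMI, in lists sorted by their median (red bars). All 15 interferon-stimulated genes lie below 0, while the 38 glycoprotein and elastic fibre genes spread to both sides of the dashed median of all genes (-0.16).

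Genes of TGF-beta and bone morphogenetic protein signalling, the main known driver of matrix production, lay on both sides. Of 32 compared, 11 were at least 2-fold higher and 9 lower, with a median of 0.17. Over all genes, 8.16% were higher and 16.4% lower, with a median of -0.16. Besides Ltbp2, the higher genes included Itgb5, an integrin subunit that binds latent TGF-beta, at 592 and 147 CPM (4.03, 2.66 to 6.45), Fstl1, a secreted modulator, at 954 and 380 CPM (2.51, 1.93 to 3.32), and the receptor Tgfbr2 at 298 and 133 CPM (2.24, 1.44 to 3.68). Among growth factor genes, 2 of 17 were higher and 4 lower. Ctgf, a matricellular growth factor, stood at 1522 and 434 CPM (3.51, 2.75 to 4.55) and Igfbp3, which sequesters insulin-like growth factors, at 50.3 and 714 CPM, 14.2-fold lower (11.1 to 18.2), with 56.1% of its wild-type UMIs in 1 member. Of 13 Wnt and Hedgehog genes, 1 was higher and 6 were lower. The Wnt receptor Fzd1 was the higher one, at 594 and 153 CPM (3.87, 2.57 to 6.12).

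Of 25 contractile and cytoskeletal genes compared, 1 was at least 2-fold higher and 3 were lower, where 8.16% and 16.4% of all genes were. Tagln, transgelin, stood at 4412 and 3089 CPM (1.43, 1.30 to 1.57) and Acta2, the smooth muscle actin that marks myofibroblasts, at 2130 and 3162 CPM (0.674, 0.614 to 0.741), with a UMI in 187 of 256 and 9 of 21 members. A single wild-type member, which also held 110 UMIs of the pericyte gene Rgs5, gave 58.2% of the wild-type Acta2 UMIs, and in the subgroups of members that both libraries shared, described below, Acta2 was higher in I-PpoI members, at 4190 and 3162 CPM (1.32, 1.20 to 1.46). The Acta2 difference also turned without the members that carry mural or epithelial genes, to a log2 ratio of 2.27, and at a rule minimum of 20 UMIs, to 0.47. The myofibroblast list, with 6 of 14 genes higher and 2 lower, had the matrix genes Col8a1, Col12a1, Fn1 and Lox among its higher ones, besides Ncam1 and Runx1. Postn, periostin, stood at 64.9 and 400 CPM (0.162, 0.121 to 0.22), from 4 wild-type members.

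Most interferon-stimulated genes were lower. None of 15 compared was at least 2-fold higher, 10 were lower and all 15 had a log2 ratio under 0, with a median of -1.40 against -0.16 over all genes. Ifi27l2a stood at 171 and 614 CPM (0.278, 0.223 to 0.35) with a UMI in 98 of 256 and 12 of 21 members. Irf1, a transcription factor of the pathway, stood at 20.3 and 120 CPM (0.169, 0.0994 to 0.301), and the guanosine triphosphatase Iigp1 at 92.0 and 127 CPM (0.726, 0.457 to 1.22). A single wild-type member gave 10 of the 18 wild-type UMIs of Irf1 and 13 of the 19 of Iigp1. Without it, a choice made after seeing the data, Irf1 had a ratio of 0.361 (0.173 to 0.869) and Iigp1 turned to 2.18 (0.992 to 6.0), with 14 genes of the list under 0 and 11 at least 2-fold lower. Leaving out each wild-type member in turn, 8 to 11 of the 15 were at least 2-fold lower and the median lay between -1.53 and -1.05. Of 12 genes of MHC class I presentation, none was higher and 5 were lower, where 8.16% and 16.4% of all genes were. The heavy chain H2-D1 stood at 204 and 774 CPM (0.263, 0.216 to 0.323) with a UMI in 176 of 256 and 17 of 21 members, and the light chain B2m at 503 and 801 CPM (0.629, 0.522 to 0.763). In the other kept barcodes, H2-D1 stood at 787 CPM in the I-PpoI and 579 CPM in the wild-type library, the reverse order. The classes pooled there differ in number between the libraries. The summed MHC class I list was lower in I-PpoI macrophage (4312 against 8503 CPM) and endothelial barcodes (5512 against 9147). It was also lower in mural (1050 against 1268) and keratin-rich barcodes (2314 against 2394), but higher in proximal tubule barcodes (2486 against 1395). The interferon list had the same order in each of these classes, with 1542 against 3635 CPM in macrophage barcodes.

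Few inflammatory and complement genes had enough UMIs to compare. Of 17 chemokine and cytokine genes, 3 were higher and 4 lower, where 8.16% and 16.4% of all genes were. Cxcl14 stood at 1322 and 2315 CPM (0.571, 0.512 to 0.639). Tnfrsf11b, the decoy receptor osteoprotegerin, had 229 UMIs in 60 I-PpoI members and none in wild-type members, at least 3.36-fold higher. Of 7 complement genes, none was higher and 1, C7, was lower.

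Genes linked to DNA damage and growth arrest were examined because of the nuclease in the podocytes. Of 9 p53 targets compared, 2 were higher and 3 lower, with a median of -0.04. Over all genes, 8.16% were higher and 16.4% lower, with a median of -0.16. Gadd45a stood at 138 and 40.0 CPM (3.44, 1.57 to 9.43), which turned to a log2 ratio of -0.20 in the shared subgroups, and Rrm2b, a ribonucleotide reductase subunit, at 13.8 and 60.0 CPM (0.23, 0.111 to 0.534). Of 10 genes of the senescence list, 4 were higher and 2 lower, with Timp1 among the higher. The cyclin-dependent kinase inhibitors, named after their values were seen, gave 187 UMIs of Cdkn1a in 55 I-PpoI members (55.0 CPM) against 2 UMIs in 1 wild-type member (4.12, 1.12 to 34.3), where the other kept barcodes had 195 and 34.7 CPM. Cdkn2b gave 251 UMIs in 68 I-PpoI members and none in wild-type members, at least 3.69-fold higher. Cdkn2a gave 43 UMIs in 23 I-PpoI members (12.6 CPM) and none in wild-type members, where the floor of 3 UMIs is above that level, so that no difference was detectable at this depth.

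Of 31 fibroblast transcription factors, 4 were higher and 12 lower, with a median of -0.66. Over all genes, 8.16% were higher and 16.4% lower, with a median of -0.16. Runx1 stood at 203 and 26.7 CPM (7.62, 2.96 to 28.0) and Zeb2 at 506 and 1114 CPM (0.454, 0.387 to 0.536). Klf2, of the immediate early list, stood at 213 and 13.3 CPM (15.9, 4.40 to 132). In the lipid, retinoid and hormone list 3 of 27 genes were higher and 13 lower, with a median of -0.99. Among the higher ones was Aldh1a2, which makes retinoic acid, at 477 and 66.7 CPM (7.15, 3.88 to 14.9). Housekeeping lists differed little. No gene of 19 for oxidative phosphorylation passed 2-fold in either direction, and of 30 endoplasmic reticulum genes none was higher and 2 were lower, among them the chaperone Hspa5 at 444 and 981 CPM (0.453, 0.382 to 0.54).

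The members were clustered together, without the genes of the rule, into 6 subgroups. Each leading gene below also formed the clusters and is a description. Subgroup 1 (25 I-PpoI and 5 wild-type members) had 5 cortical interstitial fibroblast markers at least 2-fold over the other members, Pdgfra, Cxcl12, Tcf21, Inmt and Adamts1, with Pdgfra at 826 CPM in all of its members. The whole cortical interstitial list summed to 8008 CPM there, but to 11071 CPM in subgroup 2 and 10535 CPM in subgroup 4, so subgroup 1 is left unnamed. Its leading genes included Car3, Rxfp1, Tnn, Prom1, Cntn1, Kcnd2 and Npy. Subgroup 6 (7 and 4) was adventitial fibroblast-like by 10 markers of the cells around large vessels, among them Pi16, Dpt and Clec3b, and was led by Esm1, Apod, Sfrp4, Clec3b, Scara5, Myoc, Wisp2 and Osr1. In its I-PpoI members Dcn stood at 14337 CPM and Spp1 at 19.9 CPM. Subgroup 5 (13 and 4) was mural-like by 14 markers, led by Cav1, Timp4, Rgs4, Inpp4b, Rgs5, Myh11, Tspan2 and Kcnk3, and had Acta2 at 14600 CPM in its I-PpoI members. A single one of its 17 members held all 607 UMIs of the haemoglobin gene Hbb-bs in the subgroup.

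Subgroups 2, 3 and 4 were also left unnamed. Subgroup 2 (29 and 8) was the shallowest, with a median of 3402 UMIs and 8.20% mitochondrial counts, and was led by proximal tubule genes, among them Napsa, Slc7a12, Slc27a2, Tmigd1, Kap, Mep1a and Sult1d1, of which 5 came from 1 member. Its Pdgfra level was 836 CPM. Subgroup 3 (102 and 0) was led by Arg1, Slc20a1, Olr1, Prg4, Spp1, Hbegf, Ttc9 and Cxcl10, the last from 5 members. Spp1 reached 43273 CPM there with a UMI in 101 of 102 members, Timp1 5937 CPM and Mgp 44267 CPM, while Cxcl12 was at 2.92 CPM and Dcn at 404 CPM. Subgroup 4 (80 and 0) was led by H2-Aa, Scn3a, C2, Vegfd, Cacna1d, Hp, Cd74 and Clca3a1. H2-Aa had a UMI in 14 of these members, with 58 of its 73 UMIs in 1. Cd74 had a UMI in 20 of them, with 110 of its 135 UMIs in 1. Subgroup 4 had Col12a1 at 3393 CPM, Mt1 at 8578 CPM and Col1a1 at 5437 CPM, and 5 macrophage markers were at least 2-fold over the other members. Among these markers, C1qa had a UMI in 13.8% of members there and in 15.7% of those of subgroup 3. Subgroups 3 and 4 together held 182 of 256 I-PpoI members (71.1%) and none of the 21 wild-type members, which does not exclude a share of 14.3% (3 members). At a finer setting with 11 subgroups, 78.9% of I-PpoI members lay in subgroups without a wild-type member. With 1 library per genotype, such subgroups may belong to that library, and genotype and library cannot be told apart.

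**Figure D4:**
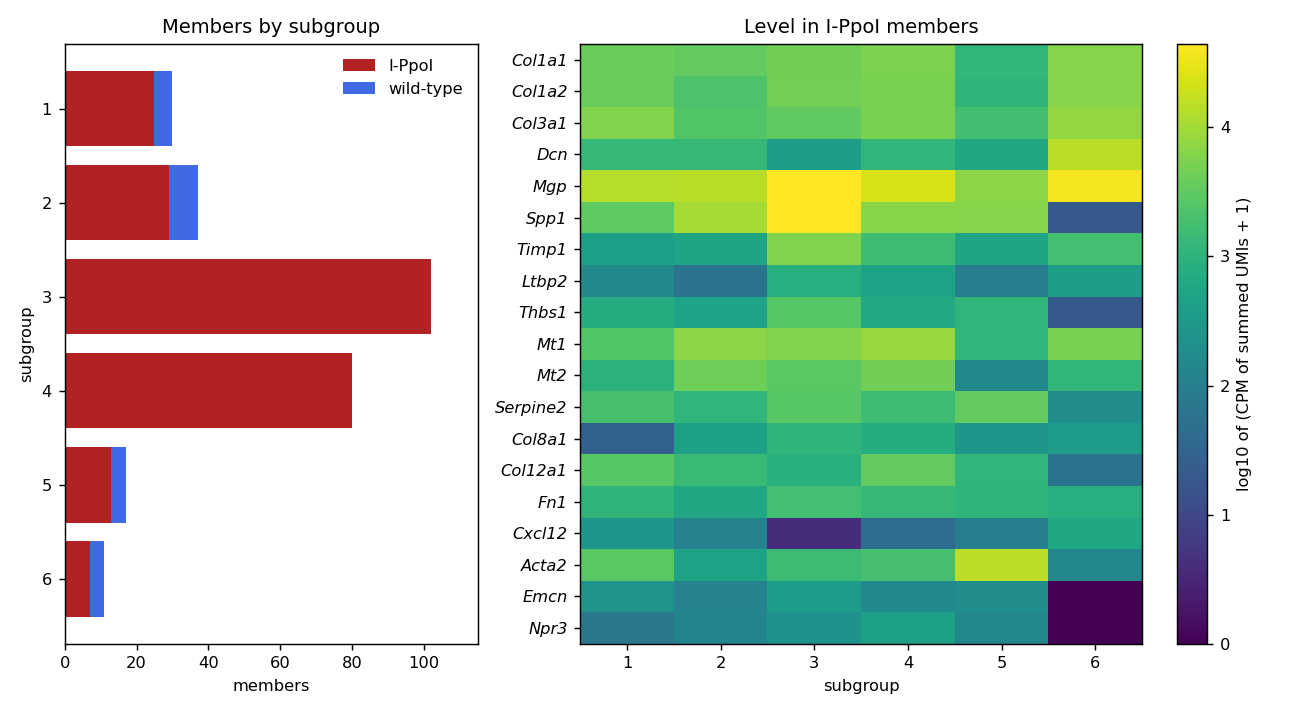
Left, the number of members of each library in the 6 subgroups; subgroups 3 and 4 hold 102 and 80 I-PpoI members and no wild-type member. Right, the level of selected genes in the I-PpoI members of each subgroup as log10 of (CPM + 1). Spp1 and Timp1 are highest in subgroup 3, Dcn in subgroup 6 and Acta2 in subgroup 5.

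The differences were then taken within the 4 subgroups that both libraries shared, over 74 I-PpoI and 21 wild-type members, a comparison added after the subgroups were seen. Spp1 stood at 4661 and 66.7 CPM there, a ratio of 69.9 (37.9 to 146) in place of 370, and Timp1 at 667 and 60.0 CPM, 11.1 (5.80 to 24.5) in place of 60.1. Subgroup 3, left out here, had Spp1 among its leading genes and the highest Timp1, while all 21 wild-type members stayed. The smaller ratios of these 2 genes therefore follow from the choice of subgroups. Mt1 had a ratio of 11.5 (8.54 to 15.9), Mt2 15.4 (9.13 to 28.3), Serpine2 8.88 (6.19 to 13.2) and Thbs1 3.96 (2.65 to 6.19), and Ltbp2 was at least 8.13-fold higher in place of 29.2. Cxcl12 was at 262 and 1921 CPM, a ratio of 0.137 (0.112 to 0.166), and Dcn at 0.472 (0.437 to 0.509). H2-D1 was at 172 and 774 CPM (0.223, 0.170 to 0.292), and its ratio was between 0.103 and 0.357 in each of the 4 subgroups. In the mural-like subgroup Dcn went the other way, at 576 and 71.9 CPM (8.01, 2.62 to 39.8), from 3 wild-type UMIs, and in the unnamed subgroup 2 it was at 1246 and 1088 CPM (1.14, 0.801 to 1.67).

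Single subgroups held 4 to 8 wild-type members each. In subgroup 1, Spp1 stood at 3111 and 45.2 CPM (68.9, 19.0 to 569), from 2 wild-type UMIs. Mt1 stood there at 2383 and 22.6 CPM (105, 18.9 to 4173), from 1 wild-type UMI, and Cxcl12 at 271 and 1378 CPM (0.197, 0.14 to 0.279). In the adventitial-like subgroup Spp1 was lower in the I-PpoI members (0.0773, 0.00784 to 0.406). It had 2 UMIs in 7 I-PpoI members against 7 UMIs in the wild-type members, all from 1 of those 4. There Mt1 stood at 4935 and 626 CPM (7.88, 4.87 to 13.6), Timp1 at 1775 and 258 CPM (6.88, 3.27 to 17.4) and Cxcl12 at 598 and 589 CPM (1.02, 0.577 to 1.89). Mt1 was thus higher in all 4 shared subgroups, also in the unnamed shallow one (11.1, 7.34 to 17.6) and the mural-like one (15.8, 5.28 to 77.5). In the adventitial-like subgroup the lower Spp1 rested on 1 wild-type member, and the interval of Cxcl12 spanned 1 (0.577 to 1.89).

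Among the I-PpoI members Timp1 and Serpine2 varied with Spp1. The correlation of Spp1 in logged counts per 10000 was 0.54 with Timp1 and 0.54 with Serpine2, the first 2 of 5060 genes. Nkd2 (0.44), Thbs1 (0.42) and Ltbp2 (0.40), named above for their difference between the libraries, were among the first 10 for Spp1. With Dcn, Spp1 had a correlation of -0.32 and Timp1 one of -0.13. Timp1 itself had a correlation of 0.47 and Spp1 one of 0.25 with the logged depth of the barcode, which all these values share.

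**Figure D5:**
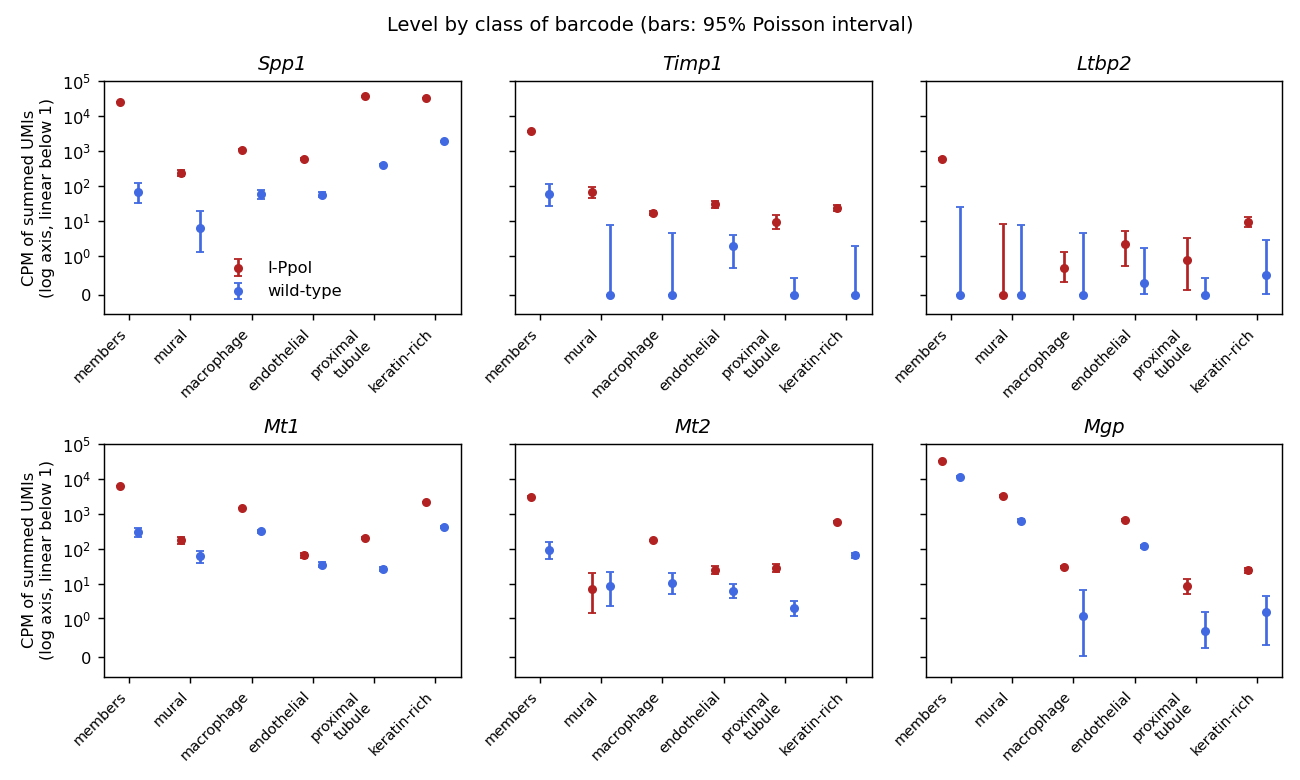
CPM of summed UMIs (log axis, linear below 1) of 6 genes in the members and 5 other classes of barcode, with 95% Poisson intervals. Timp1 and Ltbp2 are high in I-PpoI members alone among the 6 classes shown, while Spp1 reaches its highest level in I-PpoI proximal tubule barcodes (36113 CPM).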

How the data were processed

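Single-cell suspensions of kidney cortex were measured as 1 droplet library per genotype. The deposited matrices held raw UMI counts of genes in barcodes. The authors' tool was Cell Ranger, version 3.1 per the submitters' processing notes, 6.0.2 per the file headers. These notes also name Seurat 3. The 2 libraries held 5268 (I-PpoI) and 5536 (wild-type) barcodes, of which 4091 and 3217 were kept, and the I-PpoI transgene was not analysed here. The members and gene lists were chosen with earlier results of these data known.

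UMIs of the members were summed per library and scaled to CPM. Genes entered the comparison if their mean CPM gave at least 5 UMIs in the smaller library, a prior of 0.5 UMI was added before a log2 ratio, and a gene without a UMI in 1 library was bounded at 3 UMIs. Ratios have exact conditional binomial intervals, shares Clopper-Pearson and levels Poisson intervals. On simulated data for this comparison (4444 genes), 82.2% of genes changed 3-fold and 100% of those changed 5-fold passed 2-fold, as did 4.00% of unchanged genes. The simulated sums were Poisson counts without variation between cells. These percentages therefore cover counting error only and are not error rates for the genes called here. Genes were named by a rule: the first 12 each way by the interval bound nearest to 1 between libraries, not counting genes higher in other barcodes, 20 leading genes, the 4 most abundant and the most extreme of each list, the first 8 of each subgroup and the 10 most like Col1a1. The Cdkn genes, the podocyte markers and the likeness to Spp1 were chosen after values were seen. A few genes that the rule named are not reported here.

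Other classes of barcode were gated on marker genes, each with under 10 UMIs of the rule's 4 genes. Subgroups were Leiden clusters (leidenalg 0.10.2, resolution 0.5) of the members in scanpy 1.11.5, on 15 principal components of 1000 variable genes. An automatic doublet call marked 0.733% and 0.155% of kept barcodes, and the top 4% of scores were left out as an alternative; 10 of 256 and 1 of 21 members were among them. Alternatives also changed the rule's minimum, the filters, the scale, the genes compared and the members. Intervals used scipy 1.17.1, numpy 2.4.6 and pandas 2.3.3 in Python 3.11.15.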

Additional observations from a re-analysis of the deposited data

Results flagged for a closer look

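Some kept barcodes met the collagen minimum but also held a UMI of Ptprc, so they stayed outside the fibroblasts and the comparisons above. In the I-PpoI library they were 12 of 4091 kept barcodes, 0.293% (0.152 to 0.512), and in the wild-type library 0 of 3217, 0% (0 to 0.115). The 12 barcodes had a median of 26543.5 UMIs, against 12477 in the I-PpoI fibroblasts, and a median of 78.5 UMIs summed over 5 macrophage genes. Whether they are droplets with RNA of a fibroblast and a macrophage was not tested.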

How the results depend on the processing

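The share of fibroblasts stayed higher in the I-PpoI library under 6 alternatives, with a ratio between 6.98 (at most 25% mitochondrial UMIs) and 12.2 (a rule minimum of 20 UMIs), against 9.59. The number of genes compared followed the minimum of expected UMIs: at 10, 189 were at least 2-fold higher and 332 lower, and at 2, 810 were higher and 1558 lower, because fewer or more genes were compared. Without the members that carry mural or epithelial genes, which left 207 and 14 members and 2757 genes, 475 were lower. The share of I-PpoI members in subgroups without a wild-type member was 78.9% at a resolution of 1.0, and 54.7% of I-PpoI members had a Timp1 UMI when thinned to 1000 UMIs. Of the named genes reported here, all 11 higher and 10 of 11 lower ones kept their sign in 14 alternatives. Myoc had no UMI left in either library without the top doublet scores. Among the 14, the 2 that changed the minimum of expected UMIs could not alter a single gene's ratio, here or in the counts of genes that follow. Of 120 single genes with a log2 ratio of at least 1 either way, 14 changed sign in 15 of 1680 values, 7 of these in genes with enough UMIs to be compared, given here. Of 88 genes with smaller differences, 36 changed sign under some alternative. The 5 list medians at least 2-fold apart kept their sign, and 12 of the other 26 changed sign at least once. Without members carrying mural or epithelial genes Col5a3 had a log2 ratio of 0.67 and Ccnd2 0.36. In the shared subgroups, an alternative added after seeing the data, Adamts5 had 0.069, Gadd45a -0.20, Lum 0.82, Sfrp4 0.36 and Npy 0.52. The cause was not tested. No paired analysis was possible because each group is 1 library. The 21 wild-type members limit every ratio.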
